A study of Mus musculus with 24 samples.

Results

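Cdx2 occupancy was examined at the genes of 7 transcription factors of endoderm-derived epithelia: the nuclear receptors Hnf4a and Hnf4g, the zinc finger factors Gata4 and Gata6, and the forkhead factors Foxa1, Foxa2 and Foxa3. A region was counted as belonging to one of these genes when the summit of a Cdx2 peak lay in the gene body or within 50 kb of either end. Of the 61454 Cdx2-bound regions found in the 12 peak lists, 63 met this rule. They were built from 317 of 206283 peaks, peaks of different libraries that overlapped being taken as 1 region.

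The libraries came from colon organoids of 3 mice. Per the study's methods its organoid donors were 8-week-old females with 1 Cre-inducible BrafV600E allele and 1 tdTomato reporter allele. The passage on these libraries counts 3 mice and does not repeat these traits. They were taken to hold for every library, whatever its group. The labels name no Cre treatment of these cultures. Proximal and distal organoids grew for 4 months in WENR-plus medium, a culture medium with Wnt3a, EGF, Noggin and R-spondin. The WENR-minus cultures were then plated for 2 days in that medium and held for 3 days without the 4 factors. Site and medium together made 4 groups of 3 libraries, numbered 1 to 3 in the labels. Libraries of the same site and number in the 2 media were treated as 1 organoid line, so that there were 6 lines. Long-term cultures of few animals and a bulk of mixed organoid cells limit what a group stands for. Peak lists hold no expression values, so the epithelial or regional identity of the cultures could not be checked against marker genes.

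HNF4, GATA and FOXA proteins bind enhancers of endoderm-derived tissues. Hnf4a and Hnf4g are close paralogues that activate enterocyte genes such as those of lipid handling and the brush border. GATA factors set regional identity along the gut: Gata4 is a factor of the proximal small intestine, whereas Gata6 is also made in the colon. FOXA proteins are pioneer factors, able to bind closed chromatin, and act in the development of the endoderm and in secretory cells. Cdx2 is a homeobox factor that keeps intestinal identity and often lies beside HNF4 and GATA factors at shared enhancers. Hnf4a has 2 promoters. P2 lies upstream, and P1, the promoter typical of adult liver, lies downstream within the gene.

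The sequences below show the DNA under the summits on which the results turn, with the Cdx2 motif in capitals. The motif was TTTATNN on either strand, the first N standing for guanine or thymine and the second for adenine or guanine. Each is the 101 bp centred on the median summit, given 5′ to 3′ on the plus strand of mm10. At Hnf4a they are the region at P2 (chr2:163506413-163506513) and regions 73.5 kb (chr2:163580247-163580347) and 77.5 kb (chr2:163584251-163584351) downstream of P2. At Hnf4g they are 2 intronic regions 72.9 kb (chr3:3580915-3581015) and 111 kb (chr3:3618711-3618811) into it, the region at the downstream start site (chr3:3633924-3634024) and the region with the highest rank of all 63 (chr3:3645769-3645869). The region in the window of Gata4 that was bound in every library (chr14:63172499-63172599) and the region at the Foxa1 start (chr12:57546804-57546904) close the set.
Hnf4a, P2: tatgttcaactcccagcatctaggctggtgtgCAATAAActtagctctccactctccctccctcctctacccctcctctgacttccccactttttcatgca
Hnf4a, +73.5 kb: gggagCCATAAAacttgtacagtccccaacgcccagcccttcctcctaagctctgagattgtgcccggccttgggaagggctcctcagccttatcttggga
Hnf4a, +77.5 kb: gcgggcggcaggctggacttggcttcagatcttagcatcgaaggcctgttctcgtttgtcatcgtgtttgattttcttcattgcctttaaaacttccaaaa
Hnf4g, +72.9 kb: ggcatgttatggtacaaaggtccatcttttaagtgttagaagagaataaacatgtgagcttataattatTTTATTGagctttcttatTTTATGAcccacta
Hnf4g, +111 kb: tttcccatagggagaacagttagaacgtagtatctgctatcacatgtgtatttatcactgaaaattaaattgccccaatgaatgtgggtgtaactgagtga
Hnf4g, downstream start: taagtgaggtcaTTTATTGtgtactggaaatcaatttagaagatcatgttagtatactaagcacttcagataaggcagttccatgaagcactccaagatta
Hnf4g, +138 kb: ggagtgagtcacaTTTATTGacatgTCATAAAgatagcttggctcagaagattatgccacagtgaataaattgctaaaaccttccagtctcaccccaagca
Gata4 window: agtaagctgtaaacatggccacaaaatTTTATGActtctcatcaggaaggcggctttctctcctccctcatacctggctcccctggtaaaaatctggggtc
Foxa1 start: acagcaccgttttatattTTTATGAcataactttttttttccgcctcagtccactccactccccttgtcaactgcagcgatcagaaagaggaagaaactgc

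Of these 9 windows, those 77.5 kb downstream of Hnf4a P2 and 111 kb into Hnf4g held no copy of the motif. Within 50 bp of the library's own summit it was found in 4 of 12 libraries at the former and in 0 at the latter. The Hnf4g regions 72.9 kb and 138 kb inside the gene held 2 copies each. Across the 63 regions, 37 (58.7%, 95% Wilson interval 46.4 to 70.0, counting error only) held the Cdx2 motif within 50 bp of the median summit, beside 60.4% of all 61454 regions. The share followed how many libraries had called a region. It was 18 of 23 among member regions called in at least 6 libraries and 7 of 21 among those called in 1 library, beside 70.8% and 51.7% of all regions of those classes. Windows of the same size placed 1000 bp to either side of the member summits held it in 10 of 126 (7.94%). Letters for the partner factors themselves were also searched on both strands. AGATAA, the GATA core, or the same letters with thymine in the first place, was within 50 bp of 10 summits (15.9%, beside 18.3% of all regions), and TGTTTNC, the forkhead core with adenine or guanine as the N, of 5 (7.94%, beside 5.02%). CAAAGTC, part of the HNF4 site, was at 0 of 63, for which the limit of 3 counts is a share of 4.76% and the upper Wilson bound 5.75%, beside 2.44% of all regions. A match of letters is a description of the window and not a binding site.

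The 2 HNF4 genes held most of the regions. The Hnf4g window had 27 regions and the Hnf4a window 13, beside a median of 2 over the windows of 21938 protein-coding genes made by the same rule. More regions than 99.6% of those genes were counted at Hnf4g and more than 97.1% at Hnf4a. Per 100 kb of window the figures were 10.8 regions at Hnf4g and 7.83 at Hnf4a, beside a median of 1.87, and 99.6% and 97.9% of the genes had fewer. Foxa1 had 7 regions, Gata4 and Gata6 had 5 each, and Foxa2 and Foxa3 had 3 each. By sharing between libraries, 23 of the 63 (36.5%) were called in at least 6 libraries and 10 (15.9%) in all 12, beside 19.9% and 3.38% of all regions. Of those 10, 5 lay at Hnf4g, 3 at Hnf4a, 1 in the Gata4 window and 1 in Gata6. Only 17 of the 21938 genes had 5 or more regions called in all 12 libraries, and Hnf4g was one of them. By place, 39 member regions were intronic, 21 intergenic and 3 exonic, and 8 lay within 3 kb of an annotated start of their gene. For 17 of them the nearest protein-coding start was that of another gene.

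**Figure D1:**
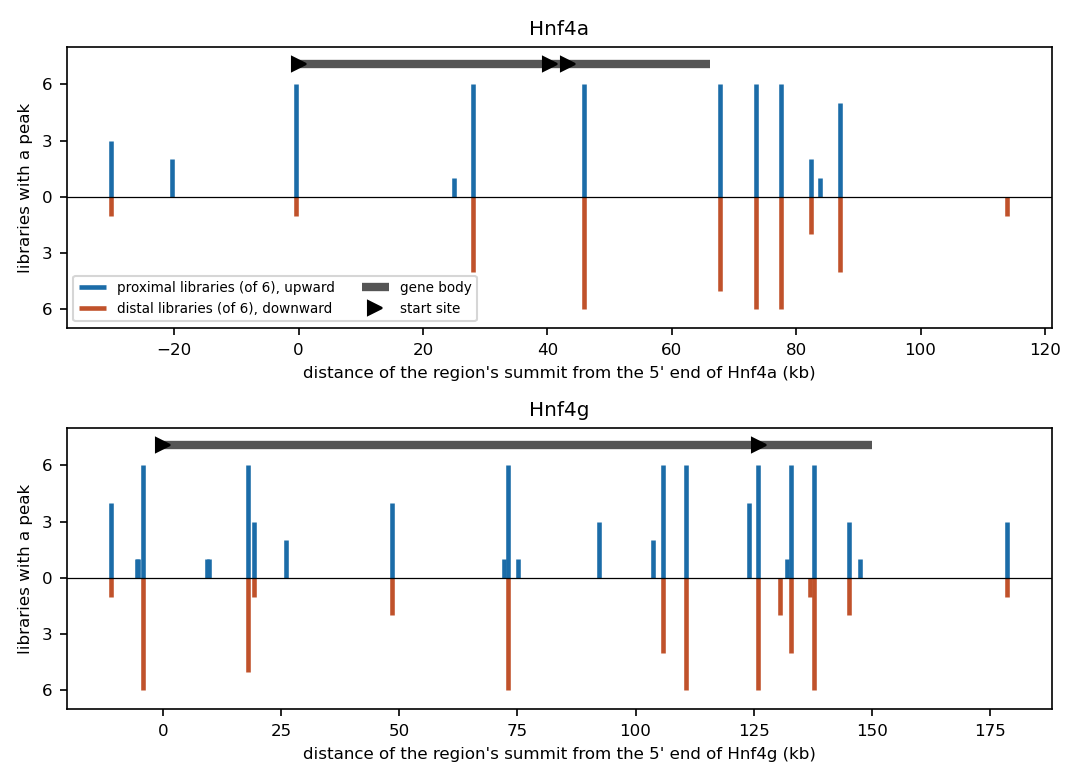
Each bar is 1 Cdx2-bound region of the Hnf4a window (top) or the Hnf4g window (bottom), placed by the distance of its median summit from the gene's 5′ end in kb. Bar height counts the proximal libraries (upward, of 6) and distal libraries (downward, of 6) with a peak, the grey band is the gene body and the arrowheads are annotated start sites. At P2 of Hnf4a the bar reaches 6 proximal and 1 distal libraries, no bar stands at P1, and the tall bars on the right lie past the end of the gene.

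The lists differed in length from 5608 to 42192 peaks, proximal lists holding 11409 to 42192 and distal lists 5608 to 21040. Any count of called regions can follow that length, so counts were repeated in lists cut to the 5608 peaks with the highest −log10 p, called lists of equal length here. In proximal WENR-plus libraries 1 to 3, 39, 46 and 25 member regions were called, and 42, 23 and 23 after withdrawal of the factors. Distal libraries had 13, 24 and 13 in WENR-plus and 29, 18 and 20 in WENR-minus. The proximal and distal counts overlapped. In lists of equal length the counts ran from 12 to 15 in proximal libraries and from 9 to 17 in distal libraries, and 22 of the 63 regions remained in at least 1 list, 14 in at least 6 and 7 in all 12. Per 1000 peaks of the deposited lists the members made up 1.09 to 2.53 regions.

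At Hnf4a (chr2:163506808-163572910, plus strand, mm10), Cdx2 peaks were found at P2 and not at P1. The P2 region (chr2:163506195-163506768) had its summit 345 bp upstream of the P2 start, in an intron of the antisense transcript Hnf4aos. It was called in 6 of 6 proximal libraries and in 1 of 6 distal libraries. Fold enrichment over input was 7.61, 7.21 and 5.48 in proximal WENR-plus libraries 1 to 3, 5.10, 4.95 and 5.18 in the proximal WENR-minus group, and 7.11 in distal WENR-plus 2, the 1 distal library that had it. The peak was of middle strength within its lists, at percentiles from 25.1 to 81.6. With Fisher's exact test of 6 against 6 libraries the unadjusted p was 0.0152 and the adjusted p over the 35518 regions called in at least 2 libraries was 0.289, so the difference did not pass. Nor was it seen at equal list length, where the peak stayed in the distal WENR-plus 2 list alone. At P1, which lies 40.4 kb downstream of P2, no library had a summit within 3 kb.

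Of the 63 regions 42 were tested for calling. Only the P2 region had an unadjusted Fisher p under 0.05 in favour of proximal libraries, 1 of 42, beside 4.96% of the 35518 regions tested. No member region passed that level in favour of distal libraries, beside 0.282% of all. For WENR-plus against WENR-minus no member passed in either direction, beside 0.127% called more often in WENR-plus and 0.0619% more often in WENR-minus. No region of the genome passed after adjustment in either comparison, with 1861 at an unadjusted p under 0.05 for site and 67 for medium. By simple count 47 member regions were called in more proximal than distal libraries (80.6% of all regions were), 4 in more distal (9.08% of all), and 12 in as many.

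The other Hnf4a regions called in at least 6 libraries were shared by both ends of the colon. Inside the gene, a region 28.0 kb downstream of P2 (chr2:163534538-163535099) was called in 10 libraries, 6 proximal and 4 distal (6 at equal length, 3 of each site). A region 45.9 kb downstream (chr2:163552452-163553044), which is 2.61 kb past a further annotated start, was called in all 12 (4 at equal length). The other 4 regions called in at least 6 libraries lay past the 3′ end of Hnf4a, between it and Ttpal, a gene of the tocopherol transfer protein family. They were 1.64 kb, 7.39 kb, 11.4 kb and 20.9 kb past the end and were called in 11, 12, 12 and 9 libraries (10, 12, 7 and 4 at equal length). The region 7.39 kb past the end (chr2:163579738-163580814) was the strongest of the locus, with a median percentile of 95.9 and a fold enrichment of 13.6, 13.6 and 19.2 in proximal WENR-plus, 16.9, 13.4 and 13.0 in proximal WENR-minus, 6.25, 15.1 and 11.3 in distal WENR-plus, and 12.6, 9.07 and 15.4 in distal WENR-minus. Those site ranges overlapped. It kept its place in all 12 lists of equal length.

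At Hnf4g (chr3:3508030-3658052, plus strand, mm10), 5 regions were bound in every library and all 5 stayed in every list of equal length. The gene has 2 groups of starts, and the downstream one begins 126 kb inside the gene. A region of 1282 bp (chr3:3633344-3634625) had its median summit 176 bp upstream of that start. The Cdx2-bound region with the highest rank of the locus, 11.7 kb further downstream in an intron (chr3:3645137-3646779), had a median percentile of 99.0 and lay above the 94th percentile in each list. Its fold enrichment was 29.5, 32.9 and 22.7 in proximal WENR-plus, 30.6, 25.1 and 23.3 in proximal WENR-minus, 18.5, 25.8 and 14.1 in distal WENR-plus, and 23.2, 11.2 and 20.3 in distal WENR-minus. The upstream start had no peak at it, the nearest shared region being 4.29 kb before it, with folds from 10.5 to 19.96 in proximal and 5.52 to 13.2 in distal libraries. Regions 18.1, 106 and 133 kb into the gene were called in 11, 10 and 10 libraries, all 6 proximal libraries among them in each case. At equal length each was left in 8 libraries, 4 proximal and 4 distal for the first and 6 proximal and 2 distal for both others. An intronic region 48.5 kb into the gene was called in 6 libraries, 4 proximal and 2 distal, and in 1 proximal library at equal length. A weaker region 2.08 kb upstream of the downstream start was called in 4 proximal libraries and no distal library (Fisher's exact p = 0.0606, adjusted p = 0.582), and in none at equal length.

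**Figure D2:**
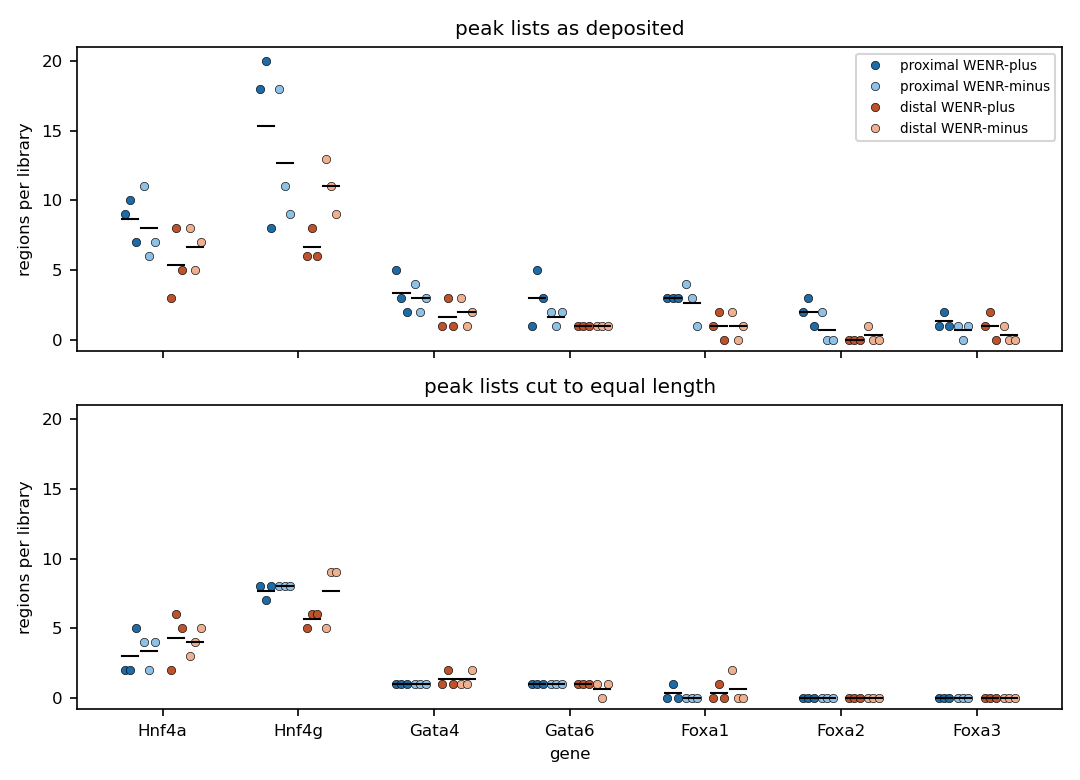
Points are the number of Cdx2-bound regions in the window of each gene in 1 library, by group (3 libraries each), and bars are group means, for the lists as deposited (top) and cut to 5608 peaks (bottom). Hnf4g ran from 6 to 20 regions per library as deposited and from 5 to 9 at equal length. At Hnf4a, Gata4 and Foxa1 libraries of the sites overlapped in the top panel, while the proximal group means lay above the distal ones. In the bottom panel these means no longer did.

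Numbers of regions were also counted per line, as the mean of its 2 media. Hnf4g had 14.0 ± 4.92 regions in proximal lines and 8.83 ± 1.15 in distal lines (SD, n = 3, exact permutation p = 0.3, two-sided). Hnf4a had 8.33 ± 1.53 and 6.00 ± 0.50 (exact permutation p = 0.1, n = 3), without overlap of the lines. The lines did not overlap at Gata4, Gata6 and Foxa1 either, with exact permutation p = 0.1 at each, the smallest p that 3 lines against 3 allow, so no test of this kind could pass. Lines without overlap and higher in proximal were thus seen at 4 of the 7 genes and at 23.3% of the 18543 coding gene windows with a region, and lines without overlap and higher in distal at 0 of the 7 and 0.307%. Foxa2 (exact permutation p = 0.2) and Foxa3 (exact permutation p = 1) overlapped. At equal list length the difference was 1.17 regions at Hnf4g, and it turned to −1.0 at Hnf4a and −0.33 at Gata4 and Foxa1. At Gata6 it was 0.17, and Foxa2 and Foxa3 had 0 regions left.

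Strength was compared in a way that list length does not enter directly: the fold enrichments of the 2079 regions called in all 12 libraries were ranked within each library, put on a normal scale (unit, 1 SD of these regions) and fitted with limma. Positive differences are higher in proximal. Of the 10 member regions that could be tested, 3 were higher in proximal, all at Hnf4g, and 1 was higher in distal, at Hnf4a, at an adjusted p under 0.05. Over all 2079 regions 5.58% were higher in proximal and 5.00% higher in distal. Regions of 1 gene share libraries and neighbourhood and are not independent of each other. The other 53 member regions were missing from at least 1 library and had no such test.

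The Hnf4g region at the downstream start had the largest proximal excess of the 10. Its fold enrichment was 24.7, 29.5 and 23.7 in proximal WENR-plus and 20.6, 24.4 and 23.3 in proximal WENR-minus, and 5.81, 8.44 and 9.82 in distal WENR-plus and 9.89, 7.75 and 10.8 in distal WENR-minus. Every proximal library was above every distal one. Among the common regions it stood between percentiles 83.8 and 93.8 (median 91.5) in proximal and between 17.5 and 69.2 (median 50.3) in distal libraries, and 4.91% of the 2079 regions had site ranges that did not overlap. The difference was 1.44 ± 0.25 (SE, limma adjusted p = 0.00454).

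Both other Hnf4g regions that passed overlapped between sites in rank. The intronic region 111 kb into the gene had folds of 17.7, 17.7 and 17.6 in proximal WENR-plus, 24.4, 22.3 and 27.0 in proximal WENR-minus, 7.36, 7.55 and 5.21 in distal WENR-plus, and 10.3, 8.64 and 16.4 in distal WENR-minus. Its percentiles among the common regions overlapped, with distal WENR-minus 3 at 91.8 and proximal libraries at 69.6 to 96.2. The difference was 1.20 ± 0.28 (limma adjusted p = 0.0130). The region 72.9 kb into the gene had folds from 12.5 to 21.8 in proximal and from 4.69 to 11.3 in distal libraries. Its difference was 1.25 ± 0.33 (limma adjusted p = 0.0287). The region upstream of the gene did not pass (0.84 ± 0.30, limma adjusted p = 0.0905), and the strongest region, 138 kb into the gene, had a difference of −0.07 ± 0.23 (limma adjusted p = 0.887). Whether the site difference itself differed between regions of Hnf4g was not tested. With replicate 1 left out the limma adjusted p of the 3 regions became 0.0631 (downstream start), 0.0905 (111 kb) and 0.125 (72.9 kb), and with replicate 2 left out 0.122, 0.177 and 0.153, at differences of 1.14 to 1.46.

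The Hnf4a region 11.4 kb past the gene's end (chr2:163583565-163584529) went the other way. Its fold enrichment was 4.44, 6.27 and 5.87 in proximal WENR-plus and 6.18, 5.31 and 6.37 in proximal WENR-minus, against 8.38, 10.2 and 13.2 in distal WENR-plus and 8.39, 10.6 and 10.1 in distal WENR-minus. Every distal library was above every proximal one, and at equal list length it was called in 1 proximal and 6 distal libraries. Its percentile among the common regions was 2.21 to 14.7 (median 6.81) in proximal and 38.7 to 86.6 (median 59.1) in distal libraries, and the difference was −1.85 ± 0.27 (limma adjusted p = 0.00174). Without replicate 2 it was −1.88 (limma adjusted p = 0.0671). Summits within this region were spread over 520 bp, the widest spread of the 63: those of proximal WENR-plus 1 and 2 (163583968 and 163583900) lay upstream of the other 10, which fell between 163584238 and 163584420. Without these 2 libraries the difference was −1.78 (limma adjusted p = 0.0234). Its median summit lay 4.00 kb from that of its stronger neighbour 7.39 kb past the end, which differed between sites by −0.08 ± 0.30 (limma adjusted p = 0.910).

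**Figure D3:**
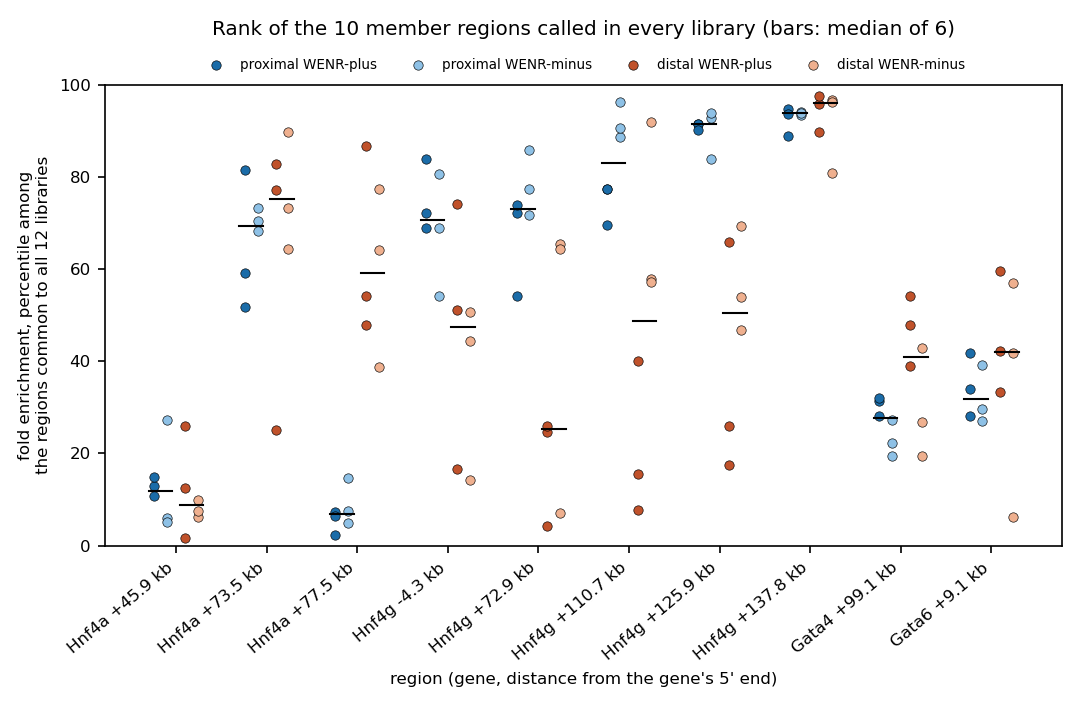
Points give the percentile of fold enrichment of each library (12 per region, coloured by group) among the 2079 regions called in all 12 libraries, for the 10 member regions found there, and bars are the median of 6 libraries per site. Proximal libraries are all above distal ones at Hnf4g +125.9 kb, the downstream start, and all below them at Hnf4a +77.5 kb, while the 2 sites lie together at Hnf4g +137.8 kb.

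The comparison of media asked whether Cdx2 binding moved when the niche factors were withdrawn. None of the 10 regions passed between WENR-plus and WENR-minus at a limma adjusted p under 0.05, where 0.144% of the 2079 regions were higher in WENR-plus and 0.337% in WENR-minus. The lowest value belonged to the Hnf4g region 111 kb into the gene (−1.12 ± 0.28 for WENR-plus less WENR-minus, limma adjusted p = 0.0650). These values took the 2 media of a line as independent. With them treated as correlated the limma adjusted p of this region became 0.0250. The share of the 2079 regions that passed for medium was then 3.99%, against 0.481% in the first fit. With 1 replicate left out of the first fit the limma adjusted p of this region was 0.223 to 0.437. Its difference was −1.46 without replicate 1 and −0.72 without replicate 3. In the first fit the Hnf4g region 72.9 kb into the gene had a difference of −0.57 ± 0.33 (limma adjusted p = 0.451). The region in the Gata4 window had one of 0.36 ± 0.20 (limma adjusted p = 0.434). No region passed the test of a medium effect that differs between sites, with limma adjusted p of at least 0.989 for the 10 and 96 of 2079 regions at an unadjusted p under 0.05. Numbers of regions per locus differed between media by −0.83 at Hnf4g to 0.67 at Gata6 and Foxa3, with exact sign-flip permutation p from 0.5 to 1 (n = 6 lines, smallest possible p 0.0312).

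The GATA genes each had 1 region bound in every library. In the Gata4 window (gene at chr14:63198922-63271692, minus strand) it was an intronic region of Fdft1, the squalene synthase gene of sterol synthesis (chr14:63172100-63172854), 41.1 kb from the nearest Gata4 start and 5.24 kb from that of Fdft1. Its fold enrichment was 9.83, 10.3 and 9.002 in proximal WENR-plus, 9.40, 7.08 and 7.03 in proximal WENR-minus, 8.38, 10.2 and 7.68 in distal WENR-plus, and 8.71, 5.92 and 6.99 in distal WENR-minus. Proximal and distal values overlapped, and the difference in rank did not pass (−0.31 ± 0.20, limma adjusted p = 0.380). A further Fdft1 region, 832 bp from the start of that gene, was called in 6 libraries and in none at equal length. Within Gata4 itself an intronic region (chr14:63232839-63233213) was called in 9 libraries, 6 proximal and 3 distal, at a median percentile of 43.9. At equal length it was left in 0 proximal and 2 distal libraries. A region 2.06 kb from a Gata4 start was called in 2 proximal libraries.

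In Gata6 (chr18:11052064-11085635, plus strand) the shared region (chr18:11060565-11061500) lay in an intron 9.09 kb from the 5′ end, 2105 bp from the start of a retained-intron transcript. It had folds of 10.1, 11.9 and 9.002 in proximal WENR-plus, 9.67, 7.43 and 8.89 in proximal WENR-minus, 8.82, 9.77 and 7.25 in distal WENR-plus, and 10.2, 4.73 and 8.14 in distal WENR-minus. Only distal WENR-minus 2 was low, and the difference in rank between sites did not pass (−0.11 ± 0.28, limma adjusted p = 0.856). It was the one member region at which the summits of all 12 libraries had the Cdx2 motif within 50 bp. The Gata6 start had a peak in 1 library, proximal WENR-plus 2, 1.52 kb upstream of it.

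The FOXA genes had no region common to all libraries. At Foxa1 (chr12:57540628-57546916, minus strand) a region at the start (chr12:57546458-57547097) was called in 9 libraries, 5 proximal and 4 distal, with its median summit 733 bp upstream of the protein-coding start and inside an exon of a noncoding Foxa1 transcript. Fold enrichment was 6.34, 7.52 and 5.87 in proximal WENR-plus, 6.72 and 3.89 in proximal WENR-minus 1 and 2, 4.41 and 4.89 in distal WENR-plus 1 and 2, and 6.78 and 4.54 in distal WENR-minus 1 and 3. The sites overlapped, the percentile within a list ran from 3.01 to 81.2 (median 41.7), and the summits were spread over 390 bp. At equal length it was left in 1 distal library. A region in an intron of the neighbouring gene Ttc6, 25.5 kb upstream of Foxa1, was called in 7 libraries (3 at equal length) at a median percentile of 74.6. Of the 3 Foxa2 regions, 2 were called in 4 libraries each and 1 in 1 library, all in introns of the noncoding gene 9030622O22Rik. The Foxa2 region 49.3 kb past the gene's end was called in 4 proximal libraries and no distal library (Fisher's exact p = 0.0606, adjusted p = 0.582). Foxa3 had a region called in 7 libraries, 21.6 kb from its start and 2.11 kb from that of Irf2bp1. No Foxa2 or Foxa3 region stayed in any list of equal length, and none lay within 3 kb of a start of its gene. Over the 7 genes, regions called in at least 6 libraries lay within 1 kb of an annotated start at Hnf4a P2, at the downstream start of Hnf4g and at Foxa1. At equal length 12 libraries kept the one at Hnf4g, and 1 library each the other two.

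**Figure D4:**
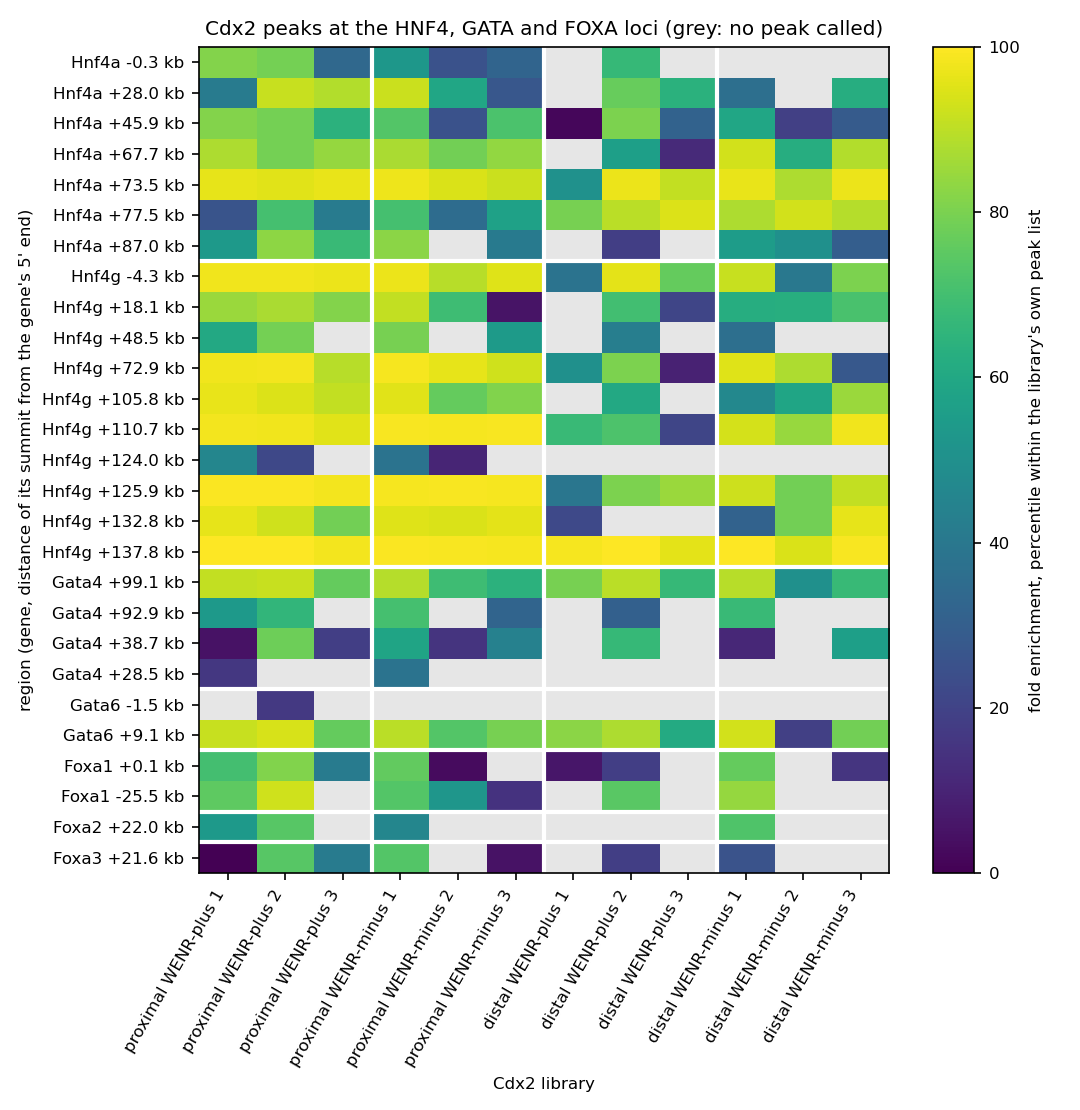
Colour gives the fold-enrichment percentile of a peak within its own library's list (0 to 100, grey where no peak was called) for 27 member regions (rows, labelled by gene and distance from the gene's 5′ end) in 12 libraries (columns, by group and replicate). The Hnf4g regions at +125.9 and +137.8 kb are near the top of every proximal list, Hnf4a −0.3 kb (P2) is grey in 5 of 6 distal libraries, and the Foxa2 and Foxa3 rows are mostly grey or low.

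For comparison, 12 other regulators of the same network were counted in the same way. They (Onecut1, Onecut2, Gata5, Zfpm1, Zfpm2, Nr5a2, Nr2f2, Nr0b2, Cebpa, Prox1, Ppargc1a and Creb3l3) had 52 regions in all, of which 16 were called in at least 6 libraries and 2 in all 12, against 23 and 10 of 63 for the members. These 2 lay at Onecut1, a cut homeobox factor, and at Ppargc1a, a coactivator of HNF4 proteins. Zfpm2 had 17 regions, more than 98.6% of coding genes, and 2 of them were called in at least 6 libraries. Its window was 550 kb long, and per 100 kb it had 3.09 regions, more than 73.1% of coding genes. Nr5a2, a nuclear receptor, had 12 regions, more than 96.4% of coding genes, and 6 of them were called in at least 6 libraries. Nr0b2 had no region.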

How the data were processed

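Cdx2 ChIPmentation, in which a transposase adds sequencing adapters to immunoprecipitated chromatin, was analysed as 12 peak lists. The 12 input libraries were not analysed here beyond their use by the authors. With tools per the study's methods and versions per the submitters' processing notes (the study's software table has other versions of Bowtie2 and SAMtools), reads were trimmed (Trimmomatic 0.39) and aligned by the authors to mm10 (Bowtie2 2.4.5), duplicates were deleted (SAMtools 1.13), and MACS2 2.2.7.1 was run on each library with its input as control. The deposited fold enrichment is a ratio of pileup to local background, the deposited −log10 p and −log10 q belong to the summit, and the deposited score is a rescaled −log10 q. These values depend on the depth and input of each library, and the lists hold no reads per region. Library totals are stated in the study's supplement and did not enter any value here.

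Peaks of chromosomes 1 to 19, X and Y were merged into regions at an overlap of 1 bp or more, and starts, exons and introns came from GENCODE vM21 on GRCm38, the assembly of mm10. Sequences were read from the RefSeq copy of that assembly. Calling was compared with two-sided Fisher's exact tests over regions in at least 2 libraries with Benjamini-Hochberg adjustment. These tests treat the 2 libraries of a line as independent. Ranks of fold enrichment among regions in all 12 libraries were fitted with limma (3.58.1, R 4.3.3) with 4 group means, and counts per locus were compared by exact permutation over lines. The limma p-values rest on the spread between libraries, the 2 media of a line being taken as independent. The permutation p-values rest on the spread between lines. Python 3.11.15, SciPy 1.17.1 and pysam 0.24.0 were used.

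Regions were described singly when called in at least 6 libraries, when they were the most shared of a gene, or when within 3 kb of a start, and the others are given as counts. The member genes, the other regulators and these rules were chosen with earlier results of these data known. Some items of these lists are not reported here. Alternatives were windows of 20 and 100 kb, merging of summits within 150 bp, a −log10 q of at least 5, lists of equal length, other rank measures, a replicate block, a correlation within lines, a motif window of 100 bp, and leaving out each replicate. The fit without 2 libraries at the Hnf4a region 11.4 kb past the gene was added after the data were seen.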

Additional observations from a re-analysis of the deposited data

How the results depend on the processing

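Of 275 recomputed values, 232 kept their direction and their side of the threshold or, for counts, stayed within 1.5 times. With lists of equal length, 22 of the 63 regions remained, 1 library had the P2 region of Hnf4a (its proximal less distal count of libraries turned from 5 to −1), and the proximal less distal number of regions turned to −1.0 at Hnf4a and −0.33 at Gata4 and Foxa1. With a −log10 q of at least 5 the number of regions past an unadjusted Fisher p of 0.05 for site fell from 1 to 0, the P2 region of Hnf4a going from 5 to 4 more proximal than distal libraries (Fisher's exact p = 0.0801). Leaving out 1 replicate gave 0 to 1 such regions. Leaving out 1 replicate also gave a site difference in number of regions of 1.25 to 3.00 at Hnf4a. The WENR-plus less WENR-minus number then ran from −2.25 to 1.25 at Hnf4a, from −2.75 to 0.50 at Hnf4g and from −0.25 to 0.75 at Foxa1, against −0.33, −0.83 and 0.17 with all replicates. With 100 bp to either side of the summit the Cdx2 motif was found in 79.4% of member regions, beside 80.2% of all. Regions whose rank differed by site numbered 0 to 4 when 1 replicate was left out, against 4, and without replicate 2 none of the 10 passed.

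Same-numbered libraries of different groups deviated together in 14 of 18 pairs at a correlation over 0.1 (lowest 0.00216, median 0.216), so not every pair met the limit and the fit without the block was kept. The study attributes most variation in Cdx2 binding to the independent mouse groups. The labels do not say whether proximal and distal libraries of 1 number shared a mouse. The permutation tests between sites took the lines as unpaired. The lowest correlation was that of distal WENR-plus 2 and distal WENR-minus 2, which were read as 1 line from their labels, as were the other pairs of 1 site and number. With the replicate block, and likewise with a correlation within lines (0.255), 1 of the 10 member regions differed between media, against 0: the Hnf4g region 111 kb into the gene (−1.12, limma adjusted p = 0.0449 and 0.0250). Of all 2079 regions 2.93% passed for medium with the block and 3.99% with the correlation, against 0.481% without either. The site calls were the same 4 regions with the block and with the correlation. With the block their limma adjusted p was 0.000736 to 0.00978. With the correlation it was 0.00597 at Hnf4a +77.5 kb. At Hnf4g it was then 0.0138 (downstream start), 0.0449 (111 kb) and 0.0485 (72.9 kb).

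Directions turned as follows, in no case past the threshold. Site differences turned on the logit scale of whole-list percentiles at Hnf4a +73.5 kb (0.64), Hnf4g +138 kb (0.54), the Gata4 window (0.38) and Gata6 (0.73), a scale on which the median of all 2079 regions was itself 0.74 and on which Hnf4g −4.29 kb passed (2.08, limma adjusted p = 0.0469). With 1 replicate left out, site differences ran from −0.34 to 0.068 at Hnf4a +73.5 kb and from −0.39 to 0.17 at Gata6. Medium differences then ran from −0.14 to 0.29 at Hnf4a +45.9 kb, from −0.20 to 0.077 at Hnf4a +77.5 kb, from −0.15 to 0.60 at Hnf4g −4.29 kb, from −0.23 to 0.26 at Hnf4g +138 kb and from −0.085 to 0.48 at Gata6. With ranks of −log10 p the medium difference at Hnf4g +138 kb was −0.052, against 0.035. The cause of these changes was not tested. Precision was limited by the number of lines and by the lack of read counts per region.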
